A study of Homo sapiens with 4 samples.

Results

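The genes of G1/S control and DNA replication were examined in OCI-Ly10 cells, an established human lymphoma line (diffuse large B-cell, activated B-cell type), after small interfering RNA (siRNA) had been directed at MYC, a transcription factor that drives cell growth and division. The members were 39 of the 4454 named genes with a value on at least 2 arrays. They were taken by symbol alone: MCM helicase subunits, RFC and RPA subunits, subunits of DNA polymerases alpha, delta and epsilon and of primase, E2F and DP factors, D and E cyclins, CDK2, CDK4, CDK6, the RB family, PCNA, CDC6, CDC7, CDT1, LIG1 and FEN1. Values were complete on the 4 arrays for 36 members, whereas FEN1 and RBL1 had values on 3 arrays and E2F5 on 2. POLD3 was listed without any value and was not a member. The ORC genes, MCM3, MCM6, CDC45 and the other genes of these families were not analysed here.

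Each of the 4 arrays had 2 channels. The Cy5 channel held RNA of cells electroporated with a MYC siRNA pool at 4 uM, and the Cy3 channel RNA of control cells electroporated for the same time. The 4 arrays were 24 h over cells electroporated in buffer without siRNA (called no siRNA here), 24 h over cells given 4 uM of a nonspecific siRNA against Renilla luciferase (control siRNA), 6 h over no siRNA and 8 h over control siRNA. There was 1 array for each combination and 0 arrays with swapped dyes, and the 6 h and 8 h arrays are called early. The labels do not say whether the arrays came from separate cultures, so the spread behind each p-value is that among these 4 arrays and may be technical.

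Values are the authors' log ratios, read as log2 of MYC siRNA over control. The base was taken from the size of the values and the direction from the dyes in the labels, so both are likely rather than stated. MYC itself had -1.03 (24 h over no siRNA), -0.35 (24 h over control siRNA), -1.26 (6 h over no siRNA) and -0.94 (8 h over control siRNA). Its mean of -0.89 ± 0.39 (SD, n = 4) equals 53.8% of control and passed limma's test over all rows (adjusted p = 0.0146). The number of values per array lay between 12028 and 12784, and the SD of an array's values was 0.447 on the 24 h array over no siRNA and between 0.288 and 0.327 on the other arrays. A ratio holds no level, so the B-cell identity of the line could not be checked from its markers, and levels of different members cannot be compared.

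Cells pass from G1 into S phase when D cyclins with CDK4 or CDK6, and then cyclin E with CDK2, phosphorylate the RB family and release E2F-DP factors, which switch on genes of DNA synthesis. Origins are licensed when CDC6 and CDT1 load the MCM helicase, and CDC7 and the CDKs then fire them. Polymerase alpha with primase starts each strand, polymerases delta and epsilon extend it on the PCNA clamp that RFC loads, RPA covers single-stranded DNA, and FEN1 and LIG1 join the lagging-strand pieces. MYC is known for promoting entry into S phase, with CDK4 and D cyclin genes among its described targets.

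Over the 4 arrays, 2 of the 36 complete members fell and 0 rose in limma's test of the mean log2 ratio against 0 (adjusted p under 0.05 over 6798 rows). Of all rows, 10.2% fell and 5.56% rose, so the share of members called was not above the background. At an unadjusted p under 0.05 stood 7 members (19.4%), 6 of them lower (16.7%), fewer than the shares of all rows (35.4% and 19.6% lower). The median of the members' mean log2 ratios was -0.09, against -0.003 over all rows, and the mean lay below 0 in 72.2% of members and in 50.5% of all rows. Without the 24 h array over no siRNA the members' median was -0.043, and without the 24 h array over control siRNA -0.049. All 4 values were below 0 for 8 members (22.2%, against 23.3% of all rows) and above 0 for 3 (8.33%, against 19.4%). In RNA of whole cultures, fewer cells in S phase and less RNA per cell cannot be told apart.

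POLA1, the catalytic subunit of polymerase alpha, had log2 ratios of -0.77 on the 24 h array over no siRNA, -0.46 on the 24 h array over control siRNA, -0.47 at 6 h over no siRNA and -0.42 at 8 h over control siRNA. All 4 arrays were low, the 24 h array over no siRNA lowest. Its mean of -0.53 ± 0.16 (SD, n = 4) corresponds to 69.2% of control (adjusted p = 0.0173). It rests on 1 array feature.

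CDK4, the kinase partner of D cyclins, had -0.82 and -0.45 on the 24 h arrays over no siRNA and control siRNA, against -0.12 at 6 h over no siRNA and -0.39 at 8 h over control siRNA. All 4 arrays were below 0, and both 24 h values lay below both early ones. The mean was -0.44 ± 0.29 (SD, n = 4), or 73.5% of control (adjusted p = 0.0338). Its 2 features gave means of -0.47 and -0.42. In the second, the 24 h value over control siRNA (-0.38) lay above the 8 h value (-0.47). The call for CDK4 was lost when any 1 array was left out, with adjusted p between 0.0548 and 0.0992. That for POLA1 was lost without the 24 h array over control siRNA (0.0636) or the 6 h array (0.0546).

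The starts of 4 member genes are printed to show what lies ahead of them: those of both genes that fell, and of CDC6 and MCM7, which had the largest differences between 24 h and early arrays and were added after their values were seen. Each line runs 5′ to 3′ on the gene's own strand, from 250 bases before to 50 bases from the start, as RefSeq gives it for GRCh38.p14. Capitals mark the E-box CACGTG, the sequence MYC-MAX dimers are known to bind, and the E2F forms TTTCGCGC, TTTGGCGC, TTTCCCGC and TTTGCCGC, searched on both strands. POLA1 lies at chrX:24693668-24693967 (plus strand), CDK4 at chr12:57752261-57752560 (minus strand), CDC6 at chr17:40287629-40287928 (plus strand) and MCM7 at chr7:100101348-100101647 (minus strand).
POLA1: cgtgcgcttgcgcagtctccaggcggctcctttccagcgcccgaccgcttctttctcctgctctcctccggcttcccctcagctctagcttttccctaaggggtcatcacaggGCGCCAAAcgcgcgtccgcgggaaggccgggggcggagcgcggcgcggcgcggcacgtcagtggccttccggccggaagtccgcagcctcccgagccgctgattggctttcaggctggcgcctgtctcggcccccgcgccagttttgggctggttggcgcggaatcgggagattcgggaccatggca
CDK4: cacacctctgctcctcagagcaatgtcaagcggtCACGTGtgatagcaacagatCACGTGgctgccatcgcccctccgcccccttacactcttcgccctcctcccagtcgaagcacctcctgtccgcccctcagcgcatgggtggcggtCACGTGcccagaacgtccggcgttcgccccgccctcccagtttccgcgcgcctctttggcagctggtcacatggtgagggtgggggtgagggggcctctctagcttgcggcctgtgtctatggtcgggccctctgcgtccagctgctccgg
CDC6: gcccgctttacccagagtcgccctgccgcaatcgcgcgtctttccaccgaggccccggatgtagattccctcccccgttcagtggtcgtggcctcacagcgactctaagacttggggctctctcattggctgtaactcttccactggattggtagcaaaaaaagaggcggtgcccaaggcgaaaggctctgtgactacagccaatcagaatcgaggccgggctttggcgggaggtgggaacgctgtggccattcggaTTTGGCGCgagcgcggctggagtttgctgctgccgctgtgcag
MCM7: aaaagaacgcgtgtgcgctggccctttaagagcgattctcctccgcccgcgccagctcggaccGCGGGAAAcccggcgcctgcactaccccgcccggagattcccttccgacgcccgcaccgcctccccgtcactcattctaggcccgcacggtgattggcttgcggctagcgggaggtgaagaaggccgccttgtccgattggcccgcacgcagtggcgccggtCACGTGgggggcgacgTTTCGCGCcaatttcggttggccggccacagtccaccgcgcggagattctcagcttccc
CDK4 held 3 E-boxes and no E2F form, POLA1 and CDC6 1 E2F form each and no E-box, and MCM7 1 E-box and 2 E2F forms.

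Start regions were matched by symbol for 31 of the 39 members, all but CCND1, CCND2, CDK2, E2F5, MCM4, MCM5, RPA2 and RPA3. An E2F form lay in 14 of them (45.2%), against 3.33% of 27305 start regions of the same length: CDC6, CDT1, E2F3, LIG1, MCM2, MCM7, PCNA, POLA1, POLA2, POLE, POLE2, RBL1, RFC3 and TFDP1. An E-box lay in 6 (19.4%, against 7.43%): CDK4, CDK6, FEN1, MCM2, MCM7 and RPA1. Members with an E-box included both CDK4, with all 4 log2 ratios below 0, and RPA1, with ratios of both signs. A match describes these letters only and is not a measured binding site.

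**Figure D1:**
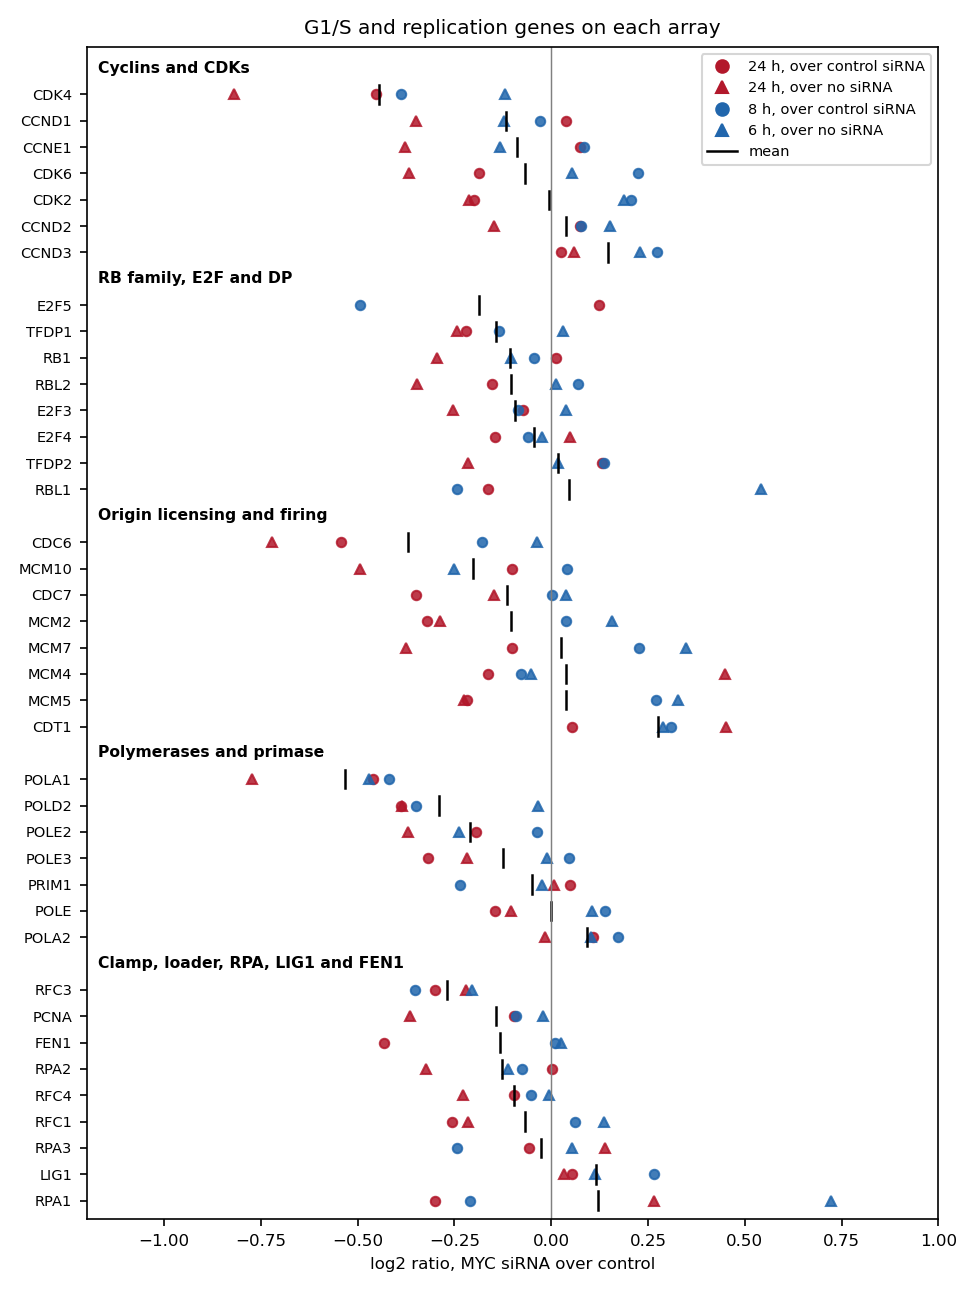
Log2 ratio (MYC siRNA over control) of each of the 39 members on each array, grouped by role and ordered by mean; the black tick is the mean over the arrays with a value, which are 3 for FEN1 and RBL1 and 2 for E2F5. POLA1 and CDK4 lie below 0 on all 4 arrays, and the 24 h points of many members lie left of their early points.

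Among the other cyclins and kinases, CCND3, a D cyclin, had log2 ratios of 0.06 and 0.03 on the 24 h arrays over no siRNA and control siRNA, against 0.23 and 0.27 on the early arrays over the same controls, a mean of 0.15. It was above 0 on every array, as CDT1 and LIG1 were, and did not pass the test (adjusted p = 0.253). For CCND3 and LIG1 this holds for the average of features. Single features had -0.43 (CCND3) and -0.11 (LIG1) at 24 h over no siRNA. CCND1 and CCND2, the other D cyclins, averaged -0.12 and 0.04, and CCNE1, cyclin E, -0.09. On their only complete features CCND1 had a mean of -0.32, which passed when only complete features were used (adjusted p = 0.0324), and CCNE1 one of -0.18, its second feature having a value on 1 array alone (0.44). CDK2 and CDK6 had means close to 0, -0.005 and -0.07, but with values below 0 at 24 h and above 0 on the early arrays. CDK6 had -0.37 and -0.19 at 24 h over no siRNA and control siRNA, against 0.05 and 0.22 on the early arrays over the same controls. CDK2, averaged over 2 features, had -0.21 and -0.20 at 24 h, against 0.19 and 0.21.

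No member of the RB, E2F and DP group passed a test. The 6 with complete values had means between -0.14 (TFDP1, a DP partner of E2F) and 0.02 (TFDP2, its relative). RB1, the prototype pocket protein, averaged -0.11, RBL2, its relative, -0.10, E2F3, an activating E2F, -0.09 and E2F4, which mostly represses, -0.05. On complete features alone, E2F3 had -0.17 and TFDP2 0.06. RBL2, as an average of features that differed in sign on the early arrays, had -0.35 and -0.15 at 24 h over no siRNA and control siRNA. Its early averages were 0.01 and 0.07. E2F5, a relative of E2F4, was measured only over control siRNA, with 0.12 at 24 h as the mean of 3 features, against -0.49 at 8 h from 1. The feature measured at both times had -0.11 at 24 h, against -0.49 at 8 h, so the change of sign in the average comes from the other features. RBL1, another pocket protein, had -0.16 at 24 h over control siRNA, against 0.54 at 6 h over no siRNA, from 1 of its 2 features, and -0.24 at 8 h over control siRNA. In a fit of rows with at least 2 arrays, neither passed (adjusted p = 0.499 for E2F5 and 0.868 for RBL1). Nor did they pass there for time (adjusted p = 0.410 for E2F5, difference 0.62 between averages of different features) or control kind (adjusted p = 0.207 for RBL1, difference 0.79).

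Of the licensing and firing genes, CDC6 and CDT1, the loaders of the MCM helicase, lay on opposite sides. CDC6 had -0.72 and -0.54 on the 24 h arrays over no siRNA and control siRNA, against -0.04 at 6 h and -0.18 at 8 h, with a mean of -0.37 ± 0.32 (SD, n = 4) and an adjusted p of 0.0656. CDT1 had 0.45 and 0.05 on the 24 h arrays, against 0.29 and 0.31 on the early arrays, with a mean of 0.28 ± 0.17 (SD, n = 4) and an adjusted p of 0.0717. Both kept 1 sign on all 4 arrays, and neither passed. With time and control kind as terms in the model, CDC6, CDK4, POLA1, POLD2 and RFC3 were lower and CDT1 was higher than 0. Of all 6798 rows, 1980 were called in that model, against 1073 in the test without these terms. The share of members called there was not above that of all rows. MCM10, which helps to activate the helicase, averaged -0.20, and CDC7, the kinase that fires origins, -0.11.

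The helicase subunits MCM2, MCM5 and MCM7 had means of -0.10, 0.04 and 0.03, each from ratios of opposite sign. MCM5 had -0.22 and -0.22 on the 24 h arrays over no siRNA and control siRNA, against 0.33 at 6 h and 0.27 at 8 h. MCM7 had -0.37 and -0.10 at 24 h, against 0.35 at 6 h and 0.23 at 8 h. MCM2 had -0.29 and -0.32 at 24 h, against 0.16 at 6 h and 0.04 at 8 h. In all 3 subunits both 24 h arrays were below 0 and both early arrays above it. MCM5 and MCM7 rest on 1 array feature each, and the MCM2 values are averages of 4 features that did not all show this. MCM4, another subunit, had 0.45 and -0.16 at 24 h, against -0.05 at 6 h and -0.08 at 8 h, but its 24 h value over no siRNA rests on 1 of its 3 features. That feature, the only complete one, had 0.45 and -0.24 at 24 h over no siRNA and control siRNA, against -0.03 at 6 h and 0.38 at 8 h, where the other features were below 0.

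In the polymerase group, POLD2, an accessory subunit of polymerase delta, had -0.39 and -0.39 at 24 h over no siRNA and control siRNA, against -0.03 at 6 h and -0.35 at 8 h, a mean of -0.29 ± 0.17 (SD, n = 4) with adjusted p = 0.0647. POLE2, an accessory subunit of polymerase epsilon, was also below 0 on every array and averaged -0.21 (adjusted p = 0.127). Its features differed in sign at 8 h (-0.26 and 0.185) and at 24 h over control siRNA (0.16 and -0.549). Those of POLD2 had means between -0.57 and -0.05. POLE3, another accessory subunit, averaged -0.13, PRIM1, the catalytic primase subunit, -0.05, POLE, the catalytic subunit of polymerase epsilon, -0.0005 and POLA2, the accessory subunit of polymerase alpha, 0.09. POLA1 thus fell while POLA2, of the same complex, did not pass, a difference between the 2 genes that was not tested.

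Among clamp, loader and strand-joining genes, RFC3, a clamp loader subunit, had -0.22 and -0.30 at 24 h over no siRNA and control siRNA, against -0.20 at 6 h and -0.35 at 8 h. Its 4 values lay closest together of these (mean -0.27 ± 0.07, SD, n = 4), with adjusted p = 0.0551. The means of RFC4 and RFC1, further loader subunits, were -0.10 and -0.07, of PCNA -0.14 and of LIG1, the ligase, 0.12. FEN1, the flap nuclease, had -0.43 at 24 h over control siRNA, against 0.03 at 6 h and 0.01 at 8 h. It rests on 1 array feature and had no value at 24 h over no siRNA. Its mean did not pass in the fit of rows with at least 2 arrays (adjusted p = 0.494). RPA2 and RPA3, smaller RPA subunits, averaged -0.13 and -0.03.

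RPA1, the large RPA subunit, split by control rather than by time. It had 0.27 at 24 h and 0.72 at 6 h over no siRNA, against -0.30 at 24 h and -0.21 at 8 h over control siRNA. The difference of 0.75 (no siRNA minus control siRNA) was the only one past an unadjusted p of 0.05 among the 36 complete members and did not pass limma's adjusted test (adjusted p = 0.105). Of all rows, 0.0883% passed that test, and 0 members did. RPA1 rests on 1 array feature. It passed after arrays were centred on their median (0.0241) or when a gene's features were summarised by their median (0.0144). With feature medians its own difference stayed at 0.75, so only the values of other rows had changed. Array identifiers also differ between the control kinds, so control and array set cannot be told apart.

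The arrays at 24 h were then set against the early ones, in a model with time and control kind as terms. No member passed (smallest adjusted p = 0.301, MCM5), and 0.118% of all rows did. The direction was nonetheless shared by most members: the difference, 24 h minus early, was below 0 in 32 of 36 (88.9%), against 49.9% of all rows. The median difference was -0.17 among members and 0.0005 over all rows. Both pairs with the same control were below 0 in 26 members (72.2%, against 27.1% of all rows), and both above 0 in PRIM1 and RPA3. MYC itself went the other way from most members, with a difference of 0.41 (adjusted p = 0.467 in the same model).

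The members' medians were -0.24 for 24 h minus 6 h over no siRNA and -0.09 for 24 h minus 8 h over control siRNA, against -0.03 and 0.03 over all rows. Both 24 h values lay below both early values in 19 members (52.8%), against a background of 19.1% of all rows. The reverse held for 1 member, PRIM1 (2.78%), against 17.4% of all rows. Values above 0 on both early arrays and below 0 on both 24 h arrays were found in 9 members (25%), against 4.21% of all rows: CDK2, CDK6, RBL2, CDC7, MCM2, MCM5, MCM7, POLE and RFC1. At an unadjusted p under 0.05 stood 6 members, all lower at 24 h (16.7%, against 6.08% of all rows): CDC6, MCM7, MCM5, CDK6, CDK2 and MCM2. Their differences were -0.53, -0.53, -0.52, -0.42, -0.40 and -0.40. MCM4 had the highest difference of the averaged genes, 0.21, but -0.07 on its complete feature, so its sign depends on which features are averaged. In 8 of the 36 members the number of features with a value differed between arrays. With only the features complete on 4 arrays, a choice made after seeing the data, the difference was below 0 in 33 members, both pairs were below 0 in 27, and both 24 h values lay below both early values in 21 and above them in 1. Early values above 0 with 24 h values below 0 were then found in 8, all of those named except CDC7. For RBL2 this held in the average only. One of its complete features had -0.11 at 8 h over control siRNA and another -0.22 at 6 h over no siRNA. In CDK2 a feature had -0.03 at 8 h, and not all MCM2 features showed the pattern. The shares of all rows were not computed under this choice, so these counts have no background beside them.

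**Figure D2:**
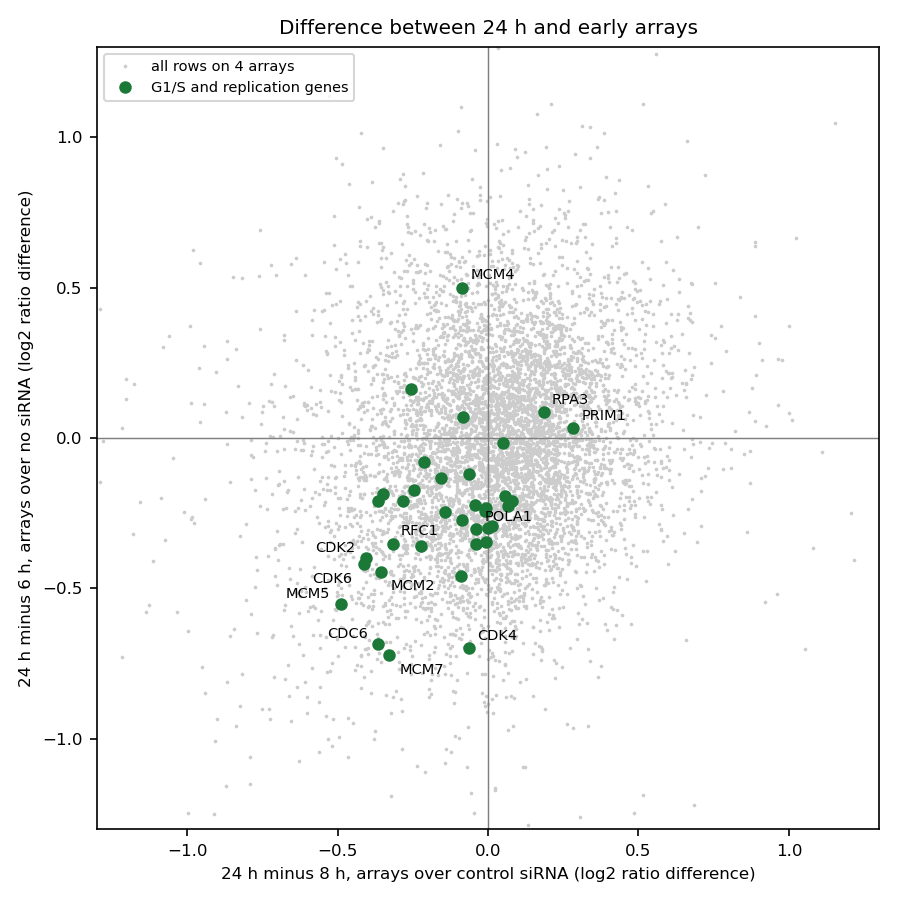
Difference between 24 h and early arrays, with 24 h minus 8 h over control siRNA on the x axis and 24 h minus 6 h over no siRNA on the y axis (log2 ratio differences), for 36 members in green and all rows in grey. Most members lie in the lower left, where both differences are below 0, and 31 rows that are not members lie beyond the axes at 1.3.

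The medians of the members' log2 ratios were -0.23 and -0.14 on the 24 h arrays over no siRNA and control siRNA, against 0.02 at 6 h and -0.01 at 8 h. Below 0 lay 28 members (77.8%) on the 24 h array over no siRNA and 25 (69.4%) on the 24 h array over control siRNA, against 17 (47.2%) at 6 h and 18 (50.0%) at 8 h. Over all rows the same shares were 53.7%, 48.7%, 51.9% and 50.5%. Marker lists of other cells, read on the same 24 h minus early difference, had medians of 0.12 (T cells, 7 of 8 genes), 0.23 (monocytes, 2 of 8) and 0.09 (erythroid cells, 4 of 6). B-cell markers, of the line's own type, had a median of 0.19 (7 of 8 genes), so a median above 0 was not particular to other cells. None of these genes passed the time test, and their part in the result was not tested.

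**Figure D3:**
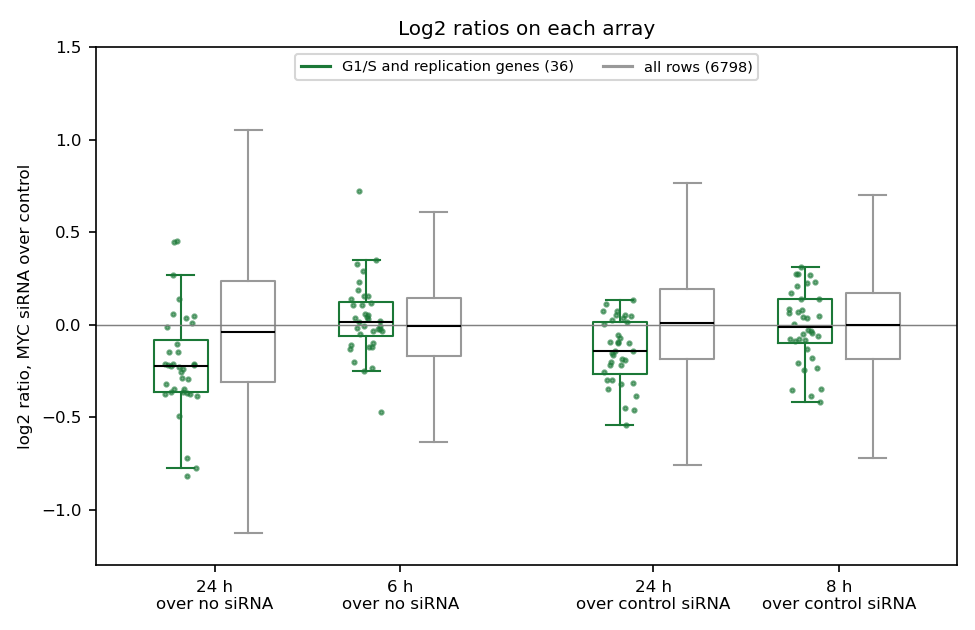
Log2 ratio (MYC siRNA over control) on each array, for the 36 members beside all 6798 rows; boxes span the quartiles, the line is the median, whiskers reach 1.5 times the box height and outlying points of all rows are not drawn. The members' medians sit below those of all rows on both 24 h arrays and about level with them on the early arrays.

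Several genes are represented by more than 1 array feature, and these did not always move together. Of the 30 members with several features, 16 had features whose means differed in sign, and 9 had such means more than 0.5 apart: CCND1, CCNE1, CDC7, CDK6, E2F4, E2F5, MCM2, RB1 and TFDP1. RB1 spanned most, with feature means of 0.31, 0.06, -0.26 and -0.55, and from 0.63 to -1.26 on the 24 h array over no siRNA. For E2F4 the features averaged between -0.44 and 0.28. The mean of a gene with such features hides the split, and which features report the gene's transcript was not tested.

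In CDK6, 2 features held the low 24 h values. They had -0.70 and -0.42, and -1.06 and -0.62, on the 24 h arrays over no siRNA and control siRNA, against 0.11 and 0.36, and 0.02 and 0.29, on the early arrays over the same controls. The other 2 complete features were above 0 at 24 h. In MCM2, all 4 features were below 0 at 24 h over control siRNA, and 1 was at 0.32 at 24 h over no siRNA. CDC6, in contrast, had 2 features of like direction, with means of -0.47 and -0.27. Tested singly, 10 of 84 complete member features were lower and 0 higher, against 12.3% and 7.09% of all 10161 complete features. The low ones belonged to 9 genes: CCND1, CDC6, CDC7, CDK4 (both features), E2F4, POLA1, POLD2, RB1 and TFDP1.

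**Figure D4:**
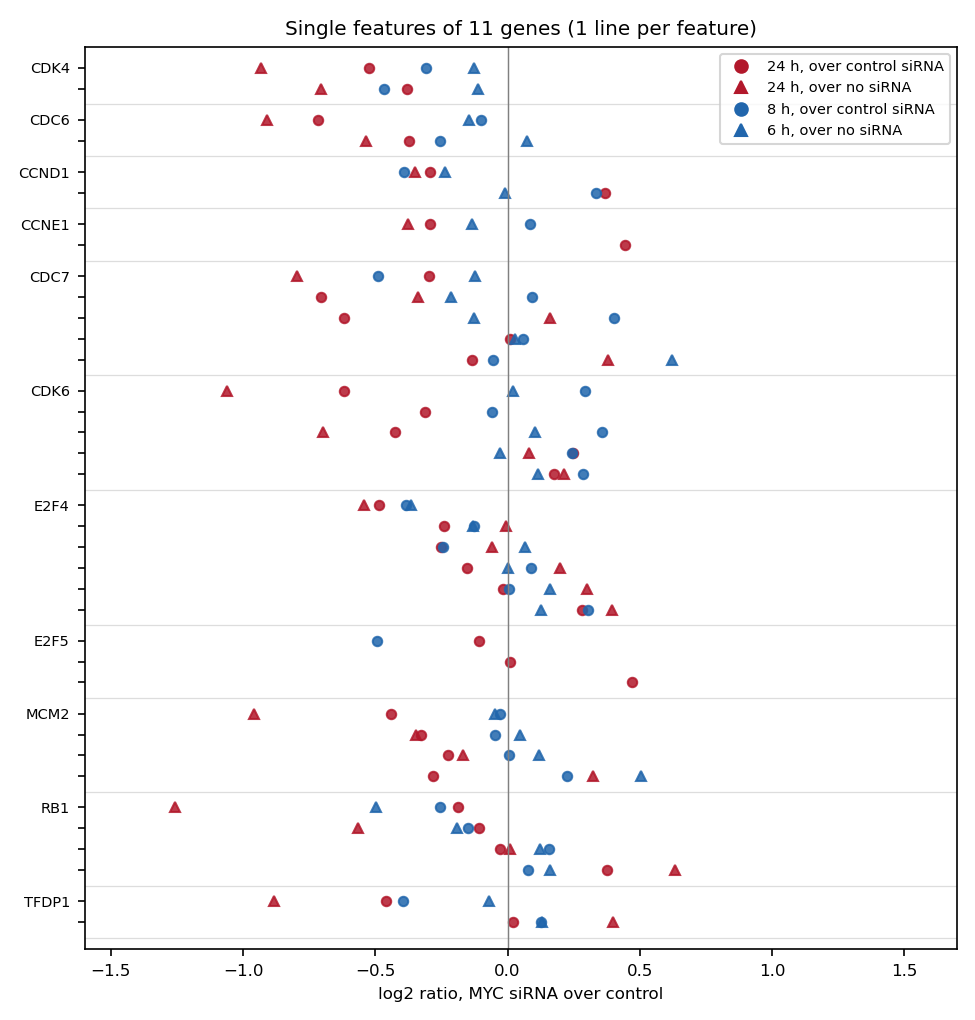
Log2 ratio (MYC siRNA over control) of single array features of 11 members, 1 line per feature and 1 point per array: CDK4 and CDC6, whose features share a direction, and the 9 genes with opposite feature means more than 0.5 apart. Features of RB1 run from -1.26 to 0.63 on the 24 h array over no siRNA.

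Genes of the pathway outside the members were read from 4 further lists. Their calls stand beside a background of 10.2% of all rows that fell and 5.56% that rose, and no list was tested as a set. Of the CDK inhibitors, which hold back the G1/S kinases, 5 of 8 were measured: CDKN2D, an inhibitor of CDK4 and CDK6, rose (mean 0.39, adjusted p = 0.0419), while CDKN1A (0.13), CDKN1B (-0.13), CDKN2A (0.10) and CDKN3 (-0.12) did not pass. Of other activators and degradation genes at G1/S, 12 of 16 were measured. MNAT1, a subunit of the CDK-activating kinase, fell (-0.44, adjusted p = 0.0232), whereas CCNA1, a cyclin A (0.43, adjusted p = 0.0242), and CDK3 (0.34, adjusted p = 0.0402) rose and 9 did not pass. Of other replisome and firing genes, 11 of 23 were measured, and DNA2, a nuclease-helicase, fell (-0.37, adjusted p = 0.0489).

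Among S-phase enzymes and other E2F targets, 13 of 17 were measured, of which UNG, the uracil-DNA glycosylase (-0.59, adjusted p = 0.0266), and ATAD2, a chromatin ATPase (-0.50, adjusted p = 0.0213), fell. UNG had -1.15 and -0.54 on the 24 h arrays over no siRNA and control siRNA, against -0.44 at 6 h and -0.24 at 8 h. The medians of mean log2 ratios were 0.10 for inhibitors, -0.15 for other activators, -0.19 for the replisome list and -0.13 for the S-phase list, beside -0.003 over all rows. No gene of these lists passed the time test. Their median differences, 24 h minus early, were -0.11 (replisome list), -0.09 (S-phase list), -0.008 (other activators) and 0.21 (inhibitors), against -0.17 among members.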

How the data were processed

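RNA of cells with MYC siRNA was compared with control RNA on 4 arrays of 2 channels. The values are the authors' processed log2 ratios, deposited as 1 value per feature and array; base and direction were read from the values and from the dyes in the labels, and how background and dyes were corrected, and why some cells are empty, is not given in the sources used here. Signal over background is unknown, and the number of arrays limits the precision.

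Symbols came from the platform annotation, updated by Entrez ID through RefSeq (10124 of 10165 features with 1 symbol matched). Features of a gene were averaged, giving 6798 rows with values on all 4 arrays. The mean log2 ratio was tested against 0 with limma 3.58.1 in R 4.3.3, with Benjamini-Hochberg adjustment over all rows; a model with time class and control kind, which leaves 1 residual degree of freedom, tested the differences. The fits were tested on simulated data with changes larger than those of any member. Recovery of changes of the members' size was not tested. All members were named, with full values for MYC, for called members, for members of 1 sign with a mean of at least 0.25 and for the largest differences. The members and lists were chosen with earlier results of these data known. Alternatives covered centring, scaling, feature summaries, completeness, moderation and each array left out.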

Additional observations from a re-analysis of the deposited data

Results flagged for a closer look

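In 2 of 37 genes examined, 1 array stood apart from the other arrays by Dixon's criterion, and chance alone flags about 1 in 20 groups. POLA1 was at -0.774 on the 24 h array over no siRNA, while its other values were -0.471, -0.46 and -0.42; the gap was 0.856 of the range. POLD2 was at -0.033 on the 6 h array over no siRNA, while its other values were -0.389, -0.385 and -0.348; the gap was 0.885 of the range.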

How the results depend on the processing

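Replicate numbers follow accession order and pair no arrays, so they entered no fit as a block; arrays with the same control kind were paired through the term for control kind. Members that fell numbered 2 of 36, 10 of 84 when features were tested singly, 5 with time and control kind as terms (1 then rose), and 0 to 1 with 1 array left out: 1 without the 8 h or the 24 h array over no siRNA, 0 without the 24 h array over control siRNA or the 6 h array. Calls over all rows were 1073, against 1971 for single features, 1980 with both terms, and 441, 234, 4 and 0 in the same order of arrays left out. In the time test 1 member feature (CDK6, adjusted p = 0.0199) passed when features were tested singly, against 0 members, with 74 calls in all, against 8. For control kind, RPA1 alone passed with centred arrays (1 member, 89 rows) and with feature medians (1 member, 162 rows), against 0 members and 6 rows. The members' median control difference, -0.02, was 0.0587 without the 8 h array, -0.128 without the 24 h array over control siRNA, 0.0798 without the 24 h array over no siRNA and -0.165 when the 6 h array was left out, each with only that term, a setting chosen after seeing the data. The E2F forms lay in 9 start regions with the 2 exact forms, against 14. Of 396 alternatives for single members, 363 kept direction and side of the threshold, 6 lost a call, 6 gained one and 21 changed sign, at sizes of at most 0.0977. CDK2 became 0.00675 centred and 0.0350 scaled, POLE 0.0111 and 0.0254, and MCM4 -0.00625 with feature medians. With 1 array left out the means ranged from -0.145 to 0.00867 (CCNE1), -0.075 to 0.0642 (CDK2), -0.166 to 0.0304 (CDK6), -0.0977 to 0.106 (MCM4), -0.057 to 0.127 (MCM5), -0.082 to 0.159 (MCM7), -0.0473 to 0.0473 (POLE), -0.0836 to 0.0104 (PRIM1), -0.0813 to 0.260 (RPA1), -0.0823 to 0.0455 (RPA3) and -0.0214 to 0.0957 (TFDP2). CCND1 fell when only features complete on 4 arrays were averaged (-0.32, adjusted p = 0.0324), and RFC3 with scaled arrays (0.0494). The members' median time difference stayed below 0 throughout, from -0.187 to -0.138 when no array was left out. With 1 array left out and only the time term, also chosen after seeing the data, it ran from -0.232 to -0.120. MYC lost its call without the 6 h array (adjusted p = 0.053). Causes of these moves were not tested. The model of time and control kind rests on 1 residual degree of freedom, which limits what its calls can show.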
